A study of Mus musculus with 2 samples.

Results

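Matricellular and adhesive glycoproteins are secreted proteins that sit between cells and the structural fibers of the matrix. The genes examined were *Tnc* and *Tnxb* (tenascins C and X), *Postn* (periostin), *Thbs1* and *Thbs2* (thrombospondins), *Sparc* and *Sparcl1*, *Spp1* (osteopontin), *Fn1* (fibronectin) and *Vtn* (vitronectin). They were chosen by name, and every probe set annotated to 1 of them and to no other gene was taken. A probe set is the group of short oligonucleotides on the array that together read a stretch of a transcript. In all, 17 of the 45101 probe sets met this rule, and they covered 9 of the 10 genes. No probe set carried the name of *Spp1* in the annotation used, so osteopontin is not analysed here.

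Matricellular proteins do not build fibers themselves but tune how cells attach, move and assemble matrix, and several are known to be made at low levels in resting adult tissue and at high levels in wounds, scars and remodelling tissue. Fibronectin and vitronectin are adhesive proteins that cells hold through integrins. In the vaginal wall they belong to the matrix of the fibromuscular stroma, whose elastic fibers depend on fibulin-5.

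RNA came from whole vagina of female C57/Bl6 mice, 1 wild type (WT) and 1 Fbln5-/- sample, each on 1 Affymetrix mouse expression array. Both had been ovariectomized and given estradiol at 50 µg/kg/d for 3 d, so the hormone treatment was common to the groups. The sample labels give an age of 6 months and ovariectomy at 11 d, the series text gives ovariectomy at 2 wks, and the methods place the treatment 2 weeks after surgery in 2 animals per group, without saying whether their RNA was pooled. With no replicates, neither a test nor a spread between animals can be had. The values are scaled MAS5 signals in arbitrary units, and a ratio is that of Fbln5-/- over WT. Brightness depends on the probe as well as on the transcript, so signals are compared between arrays and not between genes.

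The targeted gene *Fbln5* read 410.4 in WT and 30.4 in Fbln5-/- at 1 probe set, at least 4.10-fold lower with the limit of measurement set at 100. Its other probe set stayed under 100 in both. Neither was placed relative to the deletion. The control probe sets that read *Gapdh* at its 5′ end had signals of 17262.5 and 794.7 (log2 ratio −4.44), against 13328.6 and 13828.6 at its 3′ end (0.05). For *Actb* the log2 ratio was −1.87 at the 5′ end and −0.18 at the 3′ end. The control probe sets in the middle had −1.16 for *Gapdh* and −1.22 for *Actb*. On the Fbln5-/- array, signal was thus 21.7-fold lower at the 5′ end of *Gapdh* and 3.66-fold lower at that of *Actb*. In the middle it was over 2-fold lower for both. Where the probe sets of the members and of the other genes named lie along their transcripts was not examined. The part of this lower control signal in any lower value given below was not tested. The label of the tissue was checked against keratins of stratified squamous epithelium. *Krt13* had signals of 19999.2 and 21196.7 and *Krt10* of 17574.0 and 18123.2. By the brightest probe set, none of 9 measured epithelial markers differed 2-fold (median log2 ratio 0.13). Of the probe sets that reached 100 on either array, 2 of 4 for *Trp63* were at least 2-fold lower (lowest log2 ratio −4.47). For *Dsc3* it was 1 of 2 (−2.23).

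All 9 genes passed the low-signal filter, which asked for 100 or more on either array, and each had at least 1 probe set that reached 100 on both. Of the 17 probe sets, 13 passed and 4 were under 100 on both. A gene is represented by its brightest probe set, for the members and for all genes alike. Counts by gene thus leave out a gene's dimmer probe sets, and at least 2-fold lower were 4.77% of genes but 8.52% of probe sets. Of the 9 genes, 1 (*Tnc*) was 2-fold or more higher in Fbln5-/-, where 7.21% of the 11934 genes measured were that much higher. None of the 9 was at least 2-fold lower by its brightest probe set, where 4.77% of all genes were. This background depends on the scaling, and was 5.69% higher and 5.85% lower with the median ratio between the arrays set to 1, where *Tnc* was still the member past 2-fold. By probe set, 1 of 13 was at least 2-fold higher (6.49% of all 21508 probe sets past the filter) and 1 of 13 was at least 2-fold lower (8.52%). With the limit at 3-fold, *Tnc* was still higher (2.65% of genes, 2.32% of probe sets) and no member was lower (1.77% and 4.31%).

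The count at 1.5-fold depended on the scaling. At least 1.5-fold higher by the brightest probe set were 5 of 9 genes, *Tnc*, *Postn*, *Fn1*, *Sparcl1* and *Thbs1*, against 20.0% of all genes, and none was 1.5-fold lower, against 10.4%. *Thbs1* dropped below this limit in all 4 other scalings and *Sparcl1* in 3 of them, which left 3 or 4 genes beside a background of 15.4% to 17.9%. *Tnc*, *Postn* and *Fn1* were past it in each. By probe set the counts were 5 of 13 higher (18.2% of all) and 3 of 13 lower (15.2%), and the 3 lower ones belonged to *Thbs1* and *Thbs2*. By the brightest probe set, the log2 ratio was above 0 for 7 of 9 genes, as it was for 63.6% of all genes. The median over the 9 genes was 0.59, and over all genes 0.16 with quartiles of −0.17 and 0.50. The member median depends on which probe set stands for *Thbs1*. It was 0.34 with the dimmer *Thbs1* probe set in place of the brighter, a reading chosen after the values were seen, and then 1 of 9 genes was at least 2-fold lower and 4 of 9 at least 1.5-fold higher.

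**Figure D1:**
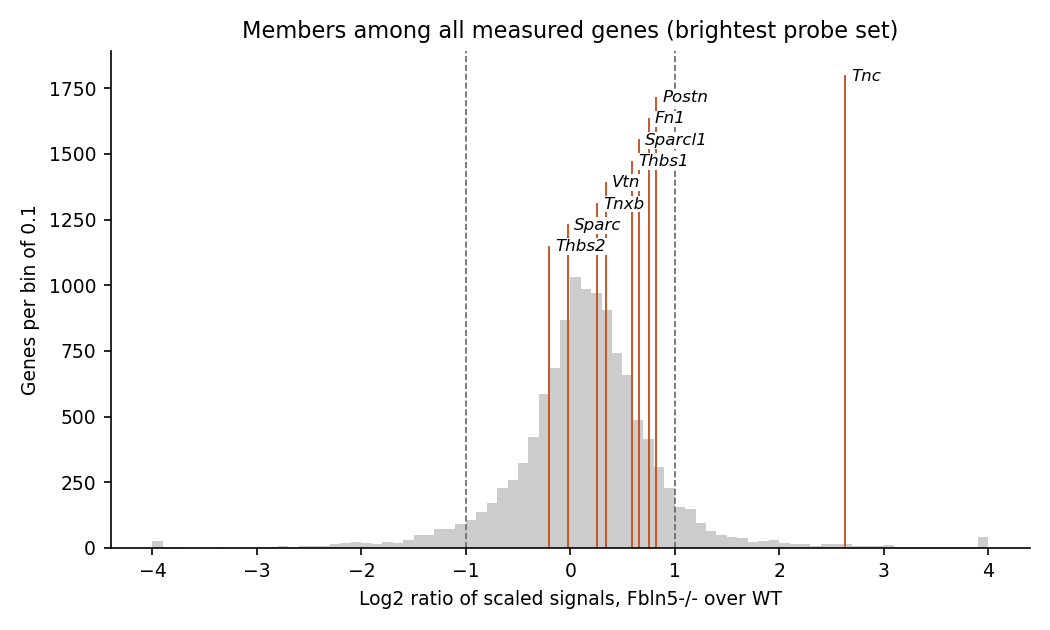
Distribution of the log2 ratio (Fbln5-/- over WT, 1 array each) over 11934 measured genes in bins of 0.1, with genes beyond −4 or 4 placed in the end bins. Red lines mark the 9 members and dashed lines a 2-fold difference. *Tnc* (2.63) stands at the far right, and the other 8 lie between −0.20 (*Thbs2*) and 0.82 (*Postn*).

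The tenascins differed from each other. *Tnc* encodes tenascin-C, a large hexameric glycoprotein of wounds, tendons and developing tissue that weakens cell attachment to fibronectin. Its signal was 623.7 in WT and 3857.1 in Fbln5-/-, 6.18-fold higher (log2 ratio 2.63). It ranked at number 110 from the top among the 11934 genes. Among the 2552 probe sets of like brightness, with a mean signal from 2000 to 5000, 0.745% had a ratio at least as high. The other *Tnc* probe set had signals of 7.0 and 14.5, both under 100, so the difference rests on 1 probe set. *Tnxb* encodes tenascin-X, which binds fibrillar collagen and whose loss is known to cause lax connective tissue. It had signals of 612.9 and 736.2 at its only probe set (1.20-fold, log2 ratio 0.26), and 41.6% of genes had a ratio at least as high. In this whole tissue, a difference in the number of cells that make a transcript and one in the RNA per cell cannot be told apart.

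*Postn* encodes periostin, which fibroblasts secrete and which links collagen, fibronectin and tenascin-C. Its signal was 2139.5 for WT and 3779.9 for Fbln5-/-, 1.77-fold higher (log2 ratio 0.82), at its only probe set. Of all genes, 11.1% had a ratio at least as high, so the difference lay below the 2-fold limit and above the upper quartile of 0.50.

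*Tnc* and *Postn* had the largest upward ratios and *Thbs2* was the gene whose brightest probe set was furthest below 0, and the 250 bases before an annotated start of each are shown here for orientation. They come from RefSeq (GRCm38.p6), in which 7 of the 10 genes had a window. For *Tnc* and *Postn*, which have 2 windows each, the one with more motif matches was taken. Capitals mark matches, on either strand, to the TATA box letters TATAAA, the GC box letters GGGCGG, the AP-1 letters TGACTCA and the SMAD-type letters CAGACA. The palindromic estrogen response element was searched as well.
*Tnc*, chr4:64046937-64047186, minus strand: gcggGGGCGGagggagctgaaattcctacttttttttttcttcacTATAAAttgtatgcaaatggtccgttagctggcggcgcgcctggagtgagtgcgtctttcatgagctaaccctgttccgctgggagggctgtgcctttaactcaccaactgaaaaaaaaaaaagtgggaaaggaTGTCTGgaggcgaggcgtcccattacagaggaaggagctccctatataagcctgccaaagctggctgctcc
*Postn*, chr3:54360857-54361106, plus strand: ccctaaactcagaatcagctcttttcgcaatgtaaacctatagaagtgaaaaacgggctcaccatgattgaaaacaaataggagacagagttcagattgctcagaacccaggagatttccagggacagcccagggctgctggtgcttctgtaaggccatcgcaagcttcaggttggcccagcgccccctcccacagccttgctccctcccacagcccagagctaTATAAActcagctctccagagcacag
*Thbs2*, chr17:14694263-14694512, minus strand: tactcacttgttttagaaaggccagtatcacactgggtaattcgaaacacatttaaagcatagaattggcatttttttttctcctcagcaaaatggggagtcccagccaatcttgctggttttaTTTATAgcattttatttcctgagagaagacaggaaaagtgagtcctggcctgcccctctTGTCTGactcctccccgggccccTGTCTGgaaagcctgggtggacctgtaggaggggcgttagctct
The *Tnc* window held the GC box letters 246 bases and the TATA box letters 205 bases before the start. It also held the SMAD-type letters on the opposite strand, printed as TGTCTG, 71 bases before it. The *Postn* window held a TATAAA beginning 26 bases before the start. The *Thbs2* window held the TATA box letters on the opposite strand, printed as TTTATA, 126 bases before the start, and 2 matches to the SMAD-type letters on that strand, 67 and 44 bases before it. Over all 32851 windows of this length, TATAAA occurred in 12.4%, GGGCGG in 32.7%, TGACTCA in 4.46%, CAGACA in 17.1% and the estrogen response element in 0.0639%. Among the 7 member genes with a window, TATAAA occurred in 5 and CAGACA in 5, GGGCGG in *Tnc* and TGACTCA in *Tnxb*, each alone, and the estrogen response element in none. These counts are by gene over 10 windows, with a match in any window of a gene counted. The shares before them are by window, so the 2 are not in the same unit. A match says only that these letters are in the window.

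The thrombospondins held the member probe sets furthest below WT. *Thbs1* and *Thbs2* encode trimeric glycoproteins that bind CD36 and CD47 and limit blood vessel growth, and thrombospondin-1 is also known to activate latent TGF-β. *Thbs1* gave opposite values at its probe sets. The brighter read 1924.8 in WT and 2891.9 in Fbln5-/- (1.502-fold higher, log2 ratio 0.59). The dimmer had 626.8 and 297.7 (2.11-fold lower, log2 ratio −1.07). The gap of 1.66 on the log2 scale was wider than usual. Among 2699 genes with exactly 2 usable probe sets (those that reach 100 in both genotypes), the median gap was 0.37, and 4.26% had a gap at least as wide. In 4.56% of these genes, as in *Thbs1*, 1 probe set was at least 2-fold lower while the other was above 0. No single direction can therefore be given for *Thbs1*, and the counts above that include it rest on the brighter probe set. The lower probe set stands beside the 5′ and middle controls given above, which were lower on the same array, and their part in this value was not tested.

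*Thbs2* was lower at each of its 3 probe sets. The brightest read 4610.2 in WT and 4015.2 in Fbln5-/- (log2 ratio −0.20). The next read 2533.5 and 1576.5 (−0.68), and the dimmest 1335.3 and 849.3 (−0.65). The decreases were thus 1.15-fold, 1.61-fold and 1.57-fold, none past 2-fold, and the part of the lower 5′ and middle control signal of this array in them was not tested. Of 947 genes with exactly 3 usable probe sets, 12.6% had all 3 below 0. The SD of the log2 ratio was 0.27 over the *Thbs2* probe sets and 0.10 over those of *Sparc*, beside a pooled SD of 0.52 between probe sets of 1 gene over 4114 genes. Probe sets of a gene read the same RNA, so this spread is not that between animals.

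**Figure D2:**
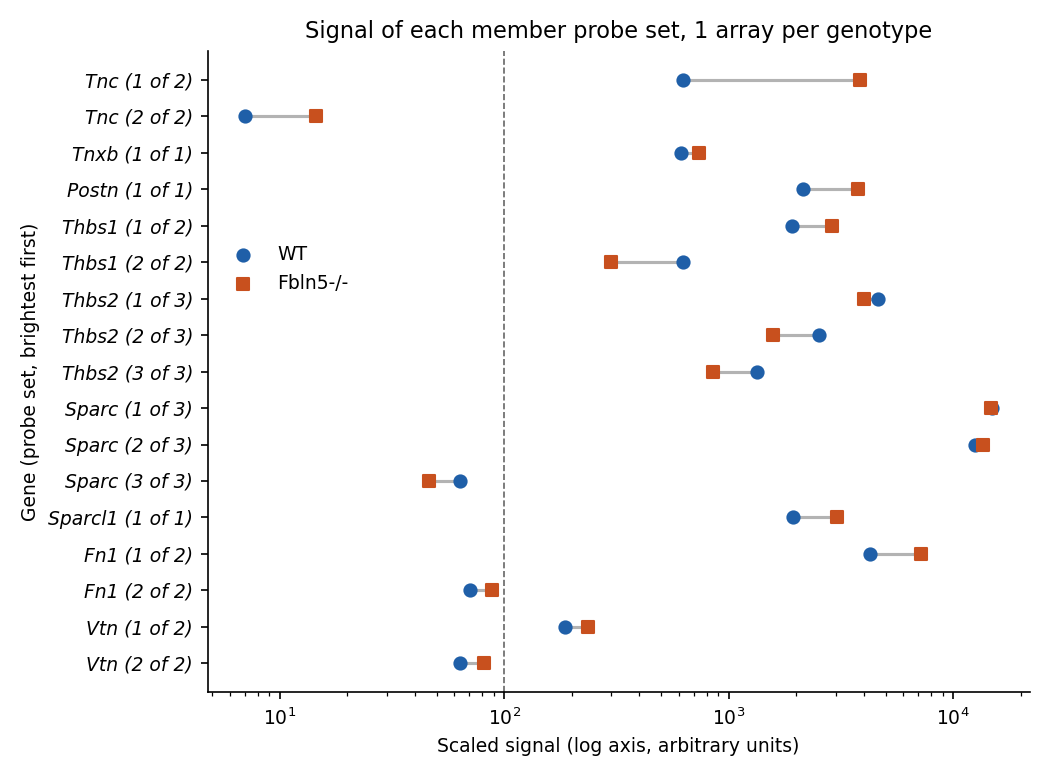
Scaled signal (log axis) of all 17 member probe sets in WT (circles) and Fbln5-/- (squares), 1 array per genotype, joined by a line, the dashed line being the limit of 100. The widest gap among probe sets past 100 is that of *Tnc* (623.7 and 3857.1). The *Thbs1* probe sets run opposite ways, the 3 of *Thbs2* are all lower on the Fbln5-/- array, and those of *Sparc* past 100 nearly coincide.

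*Sparc*, the collagen-binding glycoprotein also known as osteonectin, was the closest to equal. Its signals were 14961.3 and 14749.0 (log2 ratio −0.02) at the brightest of its probe sets, and 12497.8 and 13653.2 (0.13) at the second. Among the 1491 probe sets with a mean signal of 5000 or more, the middle 90% of log2 ratios ran from −0.42 to 0.64, and both *Sparc* values lay well inside it. The brightest *Sparc* probe set was below 0 by 0.02, and its value ranged from −0.14 to −0.02 over the scalings tried, and the third probe set had signals of 63.7 and 46.4, both under 100. *Sparcl1* encodes hevin, a relative of SPARC. It had signals of 1934.8 and 3053.4 at its only probe set (1.58-fold higher, log2 ratio 0.66), with 16.8% of genes at least as high. *Sparcl1* and *Spp1* lie on chromosome 5 with 4 coding genes between them, *Dspp*, *Dmp1*, *Ibsp* and *Mepe*, which encode mineralized-tissue proteins related to osteopontin. All 4 had signals under 100 on both arrays, the highest being 53.8 for *Ibsp* on the WT array.

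Neither adhesive protein passed 2-fold. *Fn1* encodes fibronectin, which cells assemble into fibrils that guide the deposition of collagen and of other matrix proteins. Its signal was 4257.7 for WT and 7174.8 for Fbln5-/- (1.69-fold higher, log2 ratio 0.75). Of all genes, 13.3% had a ratio at least as high, and of the probe sets of like brightness 3.96%. The second *Fn1* probe set had signals of 70.2 and 88.3, under 100 on both arrays. *Vtn* encodes vitronectin, an adhesive protein made mainly by the liver and carried in plasma. It had signals of 185.7 and 235.9 (1.27-fold, log2 ratio 0.34), with 35.2% of genes at least as high, and 63.5 and 81.6 at a second probe set under 100. The hepatocyte markers *Alb*, *Ttr*, *Apoa1*, *Fga*, *Fgb*, *Fgg*, *Apoh* and *Ahsg*, 8 of 8, were under 100 on both arrays, the highest at 68.4.

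**Figure D3:**
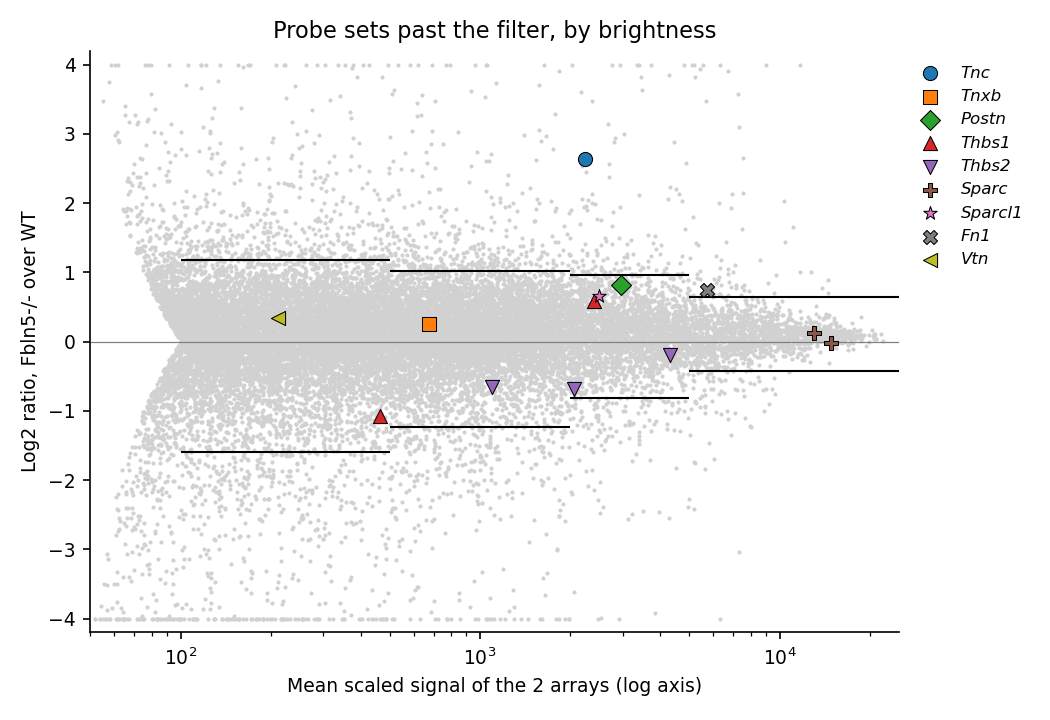
Log2 ratio (Fbln5-/- over WT) against the mean scaled signal of the 2 arrays (log axis) for all probe sets past the filter (grey, values beyond 4 drawn at the edge) and for the 13 of the members (coloured symbols). Black lines give the 5th and 95th percentiles within 4 ranges of brightness, which narrow from −1.59 and 1.18 at signals of 100 to 500 to −0.42 and 0.64 at 5000 or more. *Tnc* and *Fn1* lie above the upper line of their range.

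Integrins and other receptors for these proteins showed no common direction. Of 20 listed, 19 were measured, and by the brightest probe set 4 were at least 2-fold higher and 2 lower. The median log2 ratio was 0.23. A floor of 100 gave the same counts, and with it 5.80% of all genes were higher and 3.95% lower. The 3 integrin α chains among the higher genes pair with β1, and tenascin-C is a ligand of α8β1 and α9β1. *Itga8* had signals of 390.6 and 1245.3 (3.19-fold) and was also higher at its second probe set. *Itga9* had 71.3 and 266.3, at least 2.66-fold higher, and its other probe set had a log2 ratio of 0.61. *Itga4*, a chain of fibronectin receptor α4β1, had 161.8 and 345.6 (2.14-fold). *Itgb1*, the common β chain, had 3384.6 and 2969.6 (log2 ratio −0.19). *Itgav*, a chain of vitronectin receptors, had a log2 ratio of 0.44 at its brightest probe set and −0.67 at its other. *Itga5*, the classical fibronectin receptor chain, had 0.73 at its brightest and −2.29 at its other, so neither has a single direction. The receptor gene *Cd44* had 0.05 at its brightest probe set and −1.23 at its lowest, with 1 of its 3 at least 2-fold lower.

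The thrombospondin receptor *Cd36*, also a fatty acid transporter of adipocytes, had signals of 189.0 and 601.7 (3.18-fold), with both probe sets at least 2-fold higher. *Cd47*, the other thrombospondin receptor, had a log2 ratio of 0.53. All 5 adipocyte markers measured were higher by 2-fold or more, beside 7.21% of all genes, and 4 were with a floor of 100, beside 5.80%. *Fabp4* had 1980.3 and 5702.5 and *Adipoq* 104.1 and 1131.0, while *Ucp1*, *Retn* and *Pck1* were measured in Fbln5-/- alone and were higher by at least 6.96-fold, 4.49-fold and 1.165-fold. The summed signal of that list was 2175.9 for WT and 8210.7 for Fbln5-/-. *Lep* and *Cidec* were under 100 on both arrays. The part of fat in the *Cd36* value was not tested. *Lrp1*, an endocytic receptor that clears thrombospondins, had signals of 2321.1 and 1133.6 (2.05-fold lower), and *Plaur*, the urokinase receptor, which binds vitronectin, had 455.6 and 199.9 (2.28-fold lower), each at a single probe set.

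Related matricellular genes held some of the largest ratios near the members. Of 22 listed, 13 were measured and 9 were under 100 on both arrays. Among the 13, by the brightest probe set, 5 were higher by 2-fold or more (7.21% of all genes) and 1 lower (4.77%). The list median log2 ratio was 0.40, and the lower call was lost with a floor of 100. *Ccn2*, connective tissue growth factor, had signals of 429.3 and 2635.4, 6.14-fold higher (log2 ratio 2.62), at 1 probe set. *Ccn3* had 304.1 and 831.1 (2.73-fold) and was higher at both probe sets. *Thbs4*, a thrombospondin of tendon and muscle, had 36.3 and 414.5, at least 4.15-fold higher, and was measured in Fbln5-/- alone. *Ccn4* had 72.3 and 220.6, at least 2.21-fold higher, while its other probe set had a log2 ratio of −0.16. *Spock1* had 188.6 and 82.9, at least 1.89-fold lower. *Smoc2* had 4340.1 and 3107.2 (log2 ratio −0.48) at its brighter probe set and a log2 ratio of −2.89 at its other. *Ccn1*, the other CCN gene best known from wounds, had 1823.0 and 1217.5 (log2 ratio −0.58) and was below 0 at all 4 probe sets. *Tgfbi*, the closest relative of periostin, had 8040.4 and 9876.9 (0.30).

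By the brightest probe set, the collagens and small proteoglycans that these proteins bind were at similar or higher signal on the Fbln5-/- array. All 14 were measured. Higher by 2-fold or more were 3 (7.21% of all genes), lower 0 (4.77%), and the median log2 ratio was 0.33. *Col12a1* and *Col14a1*, fibril-associated collagens that bind tenascin-X, had signals of 808.7 and 1755.1 (2.17-fold) and of 326.5 and 1150.5 (3.52-fold). The other *Col12a1* probe set had a log2 ratio of 0.55, and both of *Col14a1* were at least 2-fold higher. *Fmod*, fibromodulin, had 135.5 and 555.5 (4.10-fold), with 3 of its 5 probe sets at least 2-fold higher and the lowest at a log2 ratio of −0.08. The main fibril collagens *Col1a1* and *Col1a2* had log2 ratios of 0.11 and 0.10.

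Of 13 TGF-β signalling genes measured by the brightest probe set, 1 was higher by 2-fold or more (7.21% of all genes) and 2 were lower (4.77%). The list median log2 ratio was 0.20. TGF-β is a known inducer of *Tnc*, *Postn*, *Fn1* and *Ccn2*. *Tgfb1* had signals of 2092.3 and 560.0 (3.74-fold lower) and *Tgfb3* had 1334.7 and 600.8 (2.22-fold lower), each at 1 probe set, so neither could be compared with another probe set of its gene. The receptor gene *Tgfbr2* had a log2 ratio of 0.07 at the brighter probe set and −5.20 at the other, and *Tgfbr3* had 0.20 and −2.27. *Ltbp1*, which stores latent TGF-β in the matrix, had 662.1 and 1516.8 (2.29-fold higher). The lower values stand beside the 5′ and middle controls, whose part in them was not tested.

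By the brightest probe set, proteases that cleave these proteins split evenly. Of 10 measured, 2 were higher by 2-fold or more (7.21% of all genes) and 2 lower (4.77%). Of the latter, 1 was lost with a floor of 100, and the list median log2 ratio was 0.20. *Mmp14* had 3511.7 and 3370.9 (−0.06) at the brightest of its 3 probe sets and −4.07 at its lowest, so it has no single value. *Plat*, tissue plasminogen activator, had signals of 222.6 and 717.7 (3.22-fold higher), and *Mmp3*, stromelysin-1, had 81.7 and 203.0, at least 2.03-fold higher. *Adamts1*, which cleaves thrombospondins, had 2467.5 and 1218.6 (2.03-fold lower), and *Plau*, urokinase, had 189.4 and 86.8, at least 1.89-fold lower.

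**Figure D4:**
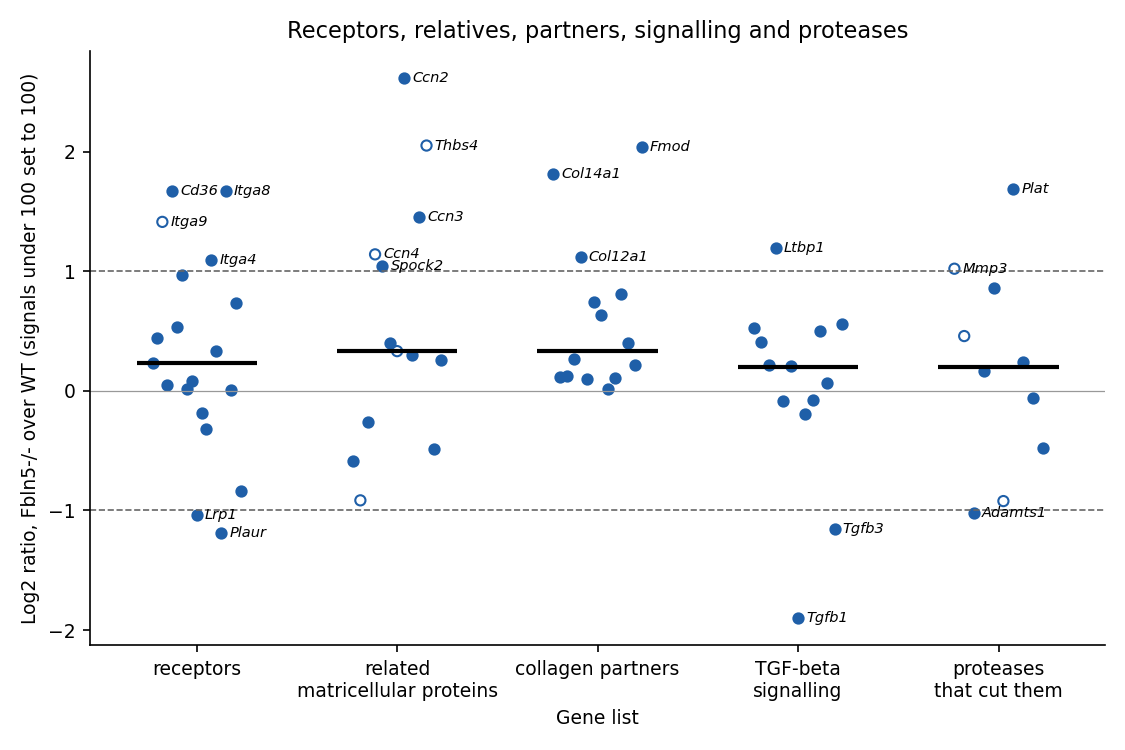
Genes of the 5 lists by log2 ratio (Fbln5-/- over WT, 1 array per genotype), computed with a floor of 100. Filled symbols show genes that reached 100 in both genotypes, open symbols show bounds for those that did so in 1, the bar gives each list's median and the dashed lines stand at 2-fold. The medians lie between 0.20 and 0.33, and all genes of the collagen partners lie above 0 by the brightest probe set, the one plotted.

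Over the 5 lists together, 15 of 69 genes (21.7%) were higher by 2-fold or more and 7 (10.1%) lower by the brightest probe set. The shares of all genes were 7.21% and 4.77%. These counts describe the lists and are no test of them.

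Markers of the cells that make or carry these proteins were read on the same arrays. For fibroblasts, 10 of 10 markers were measured, with a median log2 ratio of 0.40 and a summed signal of 51483.4 for WT and 64530.0 for Fbln5-/-. *Dcn* and *Col1a1*, the brightest, had log2 ratios of 0.40 and 0.11, *Dpt* was 2.67-fold higher and *Cd34* 2.05-fold lower. For smooth muscle, none of 8 measured differed 2-fold (median 0.03), with *Acta2* at 0.14 and *Tagln* at −0.02. Of 10 macrophage markers, 3 were higher, *Mrc1*, *Cd163* and *Cd14*, and 1 was lower, *C1qa* (1846.8 and 184.3), while *C1qb* had 1874.8 and 2065.5. *Lyz2* and *Csf1r*, the brightest of that list, had log2 ratios of −0.19 and 0.56. Of the platelet markers, *Ppbp* had 2495.9 and 10028.3 (4.02-fold), *Pf4* 667.8 and 936.1 and *Itga2b* 249.2 and 199.7 (log2 ratio −0.32), so 1 of 3 measured was past 2-fold, while *Gp9* and *Treml1* were under 100 on both arrays. Of the tendon and fascia markers, *Fmod* and *Thbs4* were measured and higher, as given above, and *Tnmd*, *Scx*, *Mkx* and *Comp* were under 100 on both arrays. The part of any of these cells in the *Tnc*, *Postn* or *Fn1* values was not tested.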

How the data were processed

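RNA from estradiol-treated WT and Fbln5-/- vagina was measured on 1 array per genotype. MAS5, per the labels, gave the linear intensities the authors deposited for 45101 probe sets (its version is not given in the sources used here), with a trimmed mean of 500 on both arrays (2% trimmed at each end). The depth of such data is their number of arrays, which limits the precision of every ratio.

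Intensities were scaled to a common median (factors 0.972 and 1.03), following the 50th percentile normalization in the methods, and a WT signal of 0 was set to 0.1. Detection calls were not used here. The low-signal filter kept the 21508 probe sets, apart from 64 controls, that reached 100 on either array. This limit hides low genes, since 54.8% of the deposited WT intensities and 55.9% of those of Fbln5-/- were below it. Names came from the platform annotation: 34958 probe sets had 1 gene, 932 several and 9211 none listed, and 34754 matched the GRCm38.p6 gene table, used for names and gene order. Folds were bounded at 100 where 1 array was under it, and none is given where both were. No test between genotypes was possible. The log2 ratios were computed here.

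The members and the 19 gene lists (5 of receptors, relatives, partners, signalling and proteases and 14 of cell markers) were chosen with earlier results of these data known. Members were named at every probe set. From the 5 lists, genes at least 2-fold different were named, at most 4 per direction, and from marker lists the brightest 2 and those 2-fold different, at most 3 per direction. Other list genes were named for their role, or because their probe sets disagreed, after their values were seen. The steps were tested on simulated arrays with planted differences. These had less scatter between probe sets of a gene than the data and no lower 5′ signal, so they check the computation and not the measurement. Computation used scipy 1.17.1, pandas 2.3.3 and numpy 2.4.6 in Python 3.11.15, and plots used matplotlib 3.10.9.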

Additional observations from a re-analysis of the deposited data

Results flagged for a closer look

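A probe set annotated to *Thbs1* and *Pald1* together was left out of the comparisons because it carries 2 gene names. Its signal was 3510.9 for WT and 4765.0 for Fbln5-/- (log2 ratio 0.44), above the level on the WT array and in the direction of the brighter of the *Thbs1* probe sets used. Which of the 2 genes it reads was not tested. No group had enough arrays for a sample to be set against others of its group.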

How the results depend on the processing

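With 15 alternative settings, 175 of 189 comparisons of a value with its alternative were kept within 1.5-fold, 14 moved and none turned in direction. Of the 189, 78 were ratios of member probe sets, none of which moved by over 1.5-fold. The settings used for those could move them only slightly, so the tally is no measure of how stable the results are. All 13 member probe sets kept their sign under the 4 other scalings. Apart from quantile normalization, these scalings move every member ratio by the same amount, the largest move being −0.11, so few signs could have turned. No sign could turn with signals under 100 set to 100, since all 13 reached 100 on both arrays. Nor could one turn with 32 added to each signal. *Tnc* ranged from 2.52 to 2.63 and the brighter *Sparc* probe set from −0.14 to −0.02. Without a filter on low signals, 2 member probe sets were at least 2-fold higher, the second being a *Tnc* probe set under 100 on both arrays. With 32 added to each signal, 0 were at least 2-fold lower, and at 3-fold also 0. At 1.5-fold, 5 members and 5 probe sets were higher and 3 probe sets lower. In scalings added after seeing the data at this limit, 3 members and 3 probe sets were higher with the deposited signals, quantile normalization or the median ratio set to 1, and 4 of each with the 75th percentile. With *Thbs1* read from its dimmer probe set, an alternative chosen after seeing the data, 1 member was at least 2-fold lower and 1 was at least 1.5-fold lower, *Thbs1* in both. The member median ranged from 0.34, also had when a gene's probe sets were averaged, to 0.62. Setting the median ratio to 1 (over probe sets that reached 100 in both genotypes) moved the median of all genes by −0.11, from 0.16 to 0.05, and turned the background from 7.21% higher and 4.77% lower to 5.69% and 5.85%. The member median stood 0.43 above that of all genes in both scalings, which is no check, since this scaling moves nearly all ratios by the same amount. No paired analysis was possible because each genotype had 1 array. Leaving out an array was not possible for the same reason.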

Other observations

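The remaining marker lists gave values outside the comparisons above. Their counts at 2-fold stand beside 7.21% of all genes higher and 4.77% lower. Of 8 skeletal muscle genes measured, 2 were higher in Fbln5-/- by 2-fold or more, *Myh1* (570.2 and 1922.5) and *Myh2* (169.6 and 372.7), while *Acta1* had 2553.1 and 3257.0 (list median log2 ratio 0.47). Of 8 endothelial genes none differed 2-fold (median 0.19), and *Esam* and *Emcn*, the brightest, had log2 ratios of 0.17 and 0.21. Of 4 Schwann cell genes, *S100b* was higher (60.1 and 129.3, at least 1.29-fold) and *Pmp22* and *Mbp* had 0.15 and 0.82. Of the bone and cartilage genes only *Alpl* was measured, with 1644.5 and 770.7 (2.13-fold lower). Of 2 urothelial genes, *Upk2* had 463.8 and 441.8 and *Upk1a* 126.7 and 45.0, at least 1.27-fold lower. All 5 intestinal genes were under 100 on both arrays, the highest at 49.2.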
